A study of Mus musculus with 16 samples.

Results

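The comparison described here is between 4 of the 16 RNA-seq libraries of the series, those labelled MSC: 2 from mice with the genotype KLF WT (WT below) and 2 from mice with the genotype KLF K74R (K74R below). K74R puts arginine in place of lysine in a KLF transcription factor. The labels do not name the KLF gene, and Klf1, an activator of erythroid genes, is the member for which such an allele is known from the literature. The titles call the mutant libraries KO although the genotype field gives a missense allele. No treatment, age, sex or strain is labelled. The other 12 libraries are bone marrow and MC38 tumor, 3 per genotype in each tissue. For the tumors the genotype is that of the host mouse. All genes that passed a filter on low counts in the 4 MSC libraries were examined, 14475 of 55536.

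The labels leave MSC unexpanded and do not say whether the cells were cultured or how they were isolated. In mouse bone research the abbreviation usually stands for mesenchymal stromal cells. These cells form bone, cartilage and fat, lay down collagen-rich matrix, and in the marrow feed blood-forming cells with factors such as Cxcl12 and Kitl. Preparations grown from mouse marrow by adherence to plastic are known to carry macrophages along with the stroma. Nothing in the labels says that the libraries of a genotype came from separate mice or cultures, and the p-values therefore reflect the spread between these libraries alone, which may be technical. In the count table the WT columns carry KCF in their names and the K74R columns KLF, a difference the sources used here do not explain.

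The marker genes showed a mixture of cell types in all 4 libraries. Levels are in CPM, the counts scaled by the library's effective total, and are always listed as WT library 1, WT library 2, K74R library 1, K74R library 2. The stromal markers Pdgfra, a growth factor receptor, and Prrx1, a limb mesenchyme transcription factor, stood at 118, 133, 258 and 176 CPM and at 234, 262, 500 and 400 CPM. The macrophage markers Csf1r, the receptor for macrophage colony-stimulating factor, and Adgre1, which encodes F4/80, stood at 1896, 1344, 402 and 796 CPM and at 1127, 897, 319 and 614 CPM. Macrophage RNA was thus present in every library and higher in both WT libraries. The summed level of 26 macrophage and monocyte genes was 23020, 18540, 8149 and 12510 CPM, and that of 10 endothelial genes 298, 1596, 19.6 and 30.3 CPM. The 29 mesenchymal stromal genes summed to 6864, 9387, 12780 and 10350 CPM. Of 16 lymphocyte genes 10 had 0 counts in all 4 libraries, among them Pax5, Ms4a1 and Cd3e. The list's sum of 176, 185, 191 and 180 CPM was nearly all Ebf1, a factor of B cells that marrow stroma also expresses (174, 180, 171 and 171 CPM). Of 15 erythroid and megakaryocyte genes 3 were at 0, Gata1 among them, and the sum of 113, 52.0, 67.3 and 134 CPM was mostly Pf4, a chemokine of platelets and some macrophages (103, 39.4, 61.5 and 128 CPM). Fewer cells of a type and less RNA per cell cannot be told apart in these bulk libraries, and the part of the differing mixture in the results that follow was not tested except where a value is given.

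**Figure D1:**
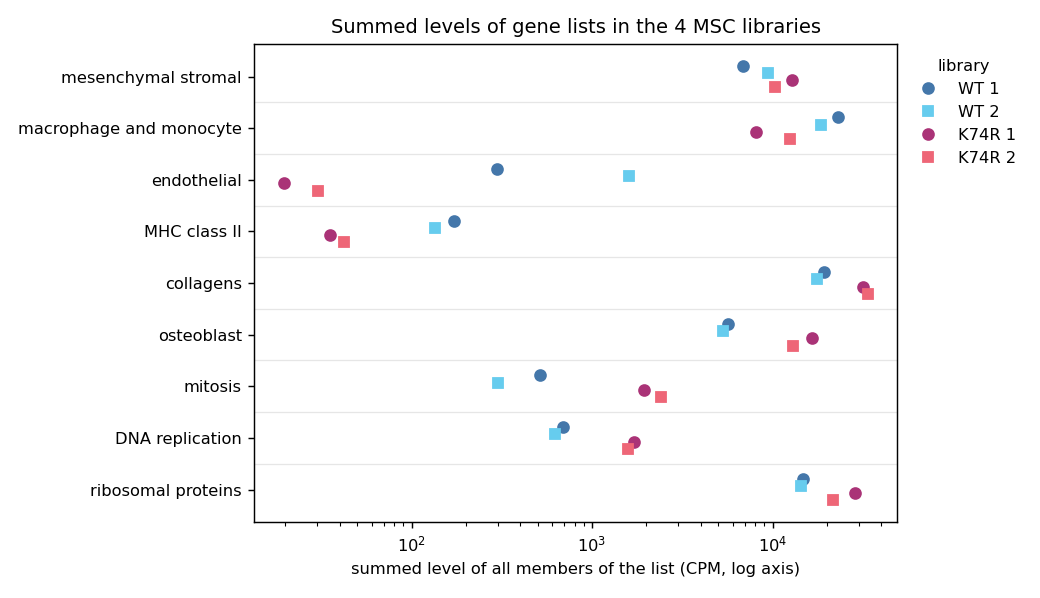
Summed level of 9 gene lists in each MSC library, in CPM on a log axis, with WT in blue and K74R in red. The endothelial list spans the widest range, from 19.6 CPM in K74R library 1 to 1596 CPM in WT library 2, and the mitosis list lies higher in both K74R libraries than in both WT libraries.

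Total counts were 17104435 and 15965993 in WT and 18726078 and 16504489 in K74R, within the 14067259 to 18923751 of the whole series. A count of 0 in both libraries of a genotype allows up to 0.0901 CPM in WT against 0.0858 CPM in K74R (3 counts over the group, counting error only). The SD of the log2 difference over genes was 0.467 between the WT libraries and 0.471 between the K74R libraries. Across genotypes it ran from 0.641 to 0.906, and K74R library 1 stood farther from both WT libraries than K74R library 2 did. Counts of the replicate pairs differed by far more than sampling noise, so all were kept as separate libraries. Klf1 had 0 counts in both WT libraries and 0.164 and 0.120 CPM in the K74R libraries, too low for a test. Since K74R is a missense allele, the transcript level does not check the labels. Xist stayed at or below 0.180 CPM and Y-linked genes were detected in all 4 libraries.

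K74R MSC libraries differed from WT at 484 genes, of which 297 were higher and 187 lower in K74R (edgeR's quasi-likelihood test, adjusted p under 0.05, Benjamini-Hochberg over all genes tested). These are 3.34% of the genes tested, with 2.05% higher and 1.29% lower, and every share of a gene list below is to be read against them. At an unadjusted p under 0.05 there were 26% of genes, 13.5% higher and 12.5% lower. WT and K74R libraries were without overlap at 59.5% of genes, 30% higher and 29.5% lower, so a lack of overlap between 2 and 2 libraries says little. An exact permutation test of 2 against 2 libraries cannot give a two-sided p below 0.333, so no such test was run for single values. The median absolute log2 fold change (K74R over WT throughout) of the genes called was 2.29 among those higher and 2.16 among those lower, and 483 of the 484 differed at least 2-fold. With 2 against 2 libraries the threshold itself favours large estimates (the smallest among the rises was 0.94), so these sizes do not describe changes in general. Over all genes tested the median log2 fold change was 0.0012, and the middle 50% of genes lay between -0.38 and 0.39.

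The count of changed genes rested on K74R library 1. Without it, with K74R library 2 assumed to vary like the WT libraries, edgeR called 0 genes (2109 of 15191 at an unadjusted p under 0.05), whereas leaving out another library gave 581 (without WT library 1), 253 (without WT library 2) and 498 (without K74R library 2). The genes called without another library were only in part those called with all 4 libraries, so similar counts do not mean the same genes. With all 4 libraries DESeq2 called 1906 genes and limma-voom 406. All 90 genes that passed and were chosen by the naming rule kept their sign in all 18 alternative settings, and 90 of 90 passed with DESeq2 and 63 of 90 with limma-voom. The kept signs say little, since all 484 called genes were without overlap between genotypes and leaving out a library could hardly turn them. For several gene lists, though not for the macrophage and cholesterol lists, the count without K74R library 1 is therefore given at an unadjusted p.

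**Figure D2:**
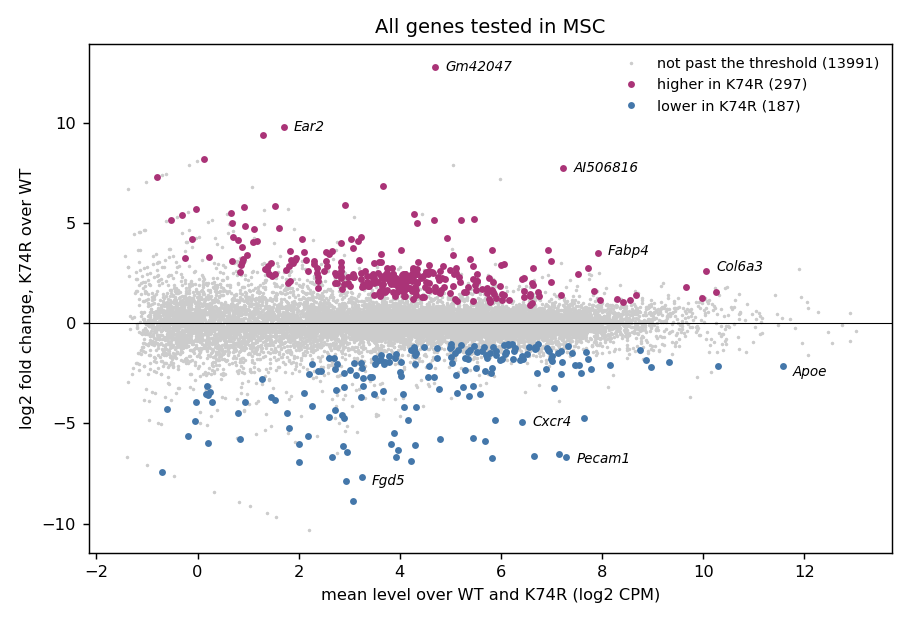
Log2 fold change of K74R over WT (vertical) against the mean level in log2 CPM (horizontal) for the 14475 genes tested in MSC. Coloured points are the 297 higher and 187 lower genes; the fold changes of genes with 0 counts in a genotype, such as Gm42047 and Ear2, depend on the prior count of the fit.

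Genes of cell division were higher in K74R MSC than in WT MSC, nearly without exception. Of 34 mitosis genes tested, 30 rose and 0 fell, with a median log2 fold change of 2.47. All 34 had an unadjusted p under 0.05, and none overlapped between genotypes. Summed over the list, the level was 515 and 302 CPM in WT against 1946 and 2413 CPM in K74R. The mitotic kinases and their partners moved together. Aurka, the kinase of spindle poles, stood at 5.13 and 5.26 CPM in WT against 30.2 and 27.8 CPM in K74R (log2 fold change 2.48, SE 0.21, adjusted p = 0.0196). Plk1, a kinase that drives mitotic entry and cytokinesis, stood at 5.77, 4.69, 36.1 and 30.5 CPM. Cdk1, the kinase bound by B-type cyclins, stood at 21.4, 14.3, 63.6 and 63.7 CPM. In each of these the K74R libraries lay close together and several times above the WT libraries.

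The cyclins Ccnb1 (10.6, 6.95, 59.6 and 60.3 CPM) and Ccna2 (12.9, 7.95, 73.6 and 80.7 CPM) rose by 2.77 and 2.89 on the log2 scale. Birc5, which encodes survivin, a subunit of the chromosomal passenger complex, showed the largest rise of the list, from 4.96 and 3.69 CPM to 38.7 and 34.8 CPM (log2 fold change 3.08, SE 0.24, adjusted p = 0.0196). Anln, an actin-binding protein of the cleavage furrow, rose from 31.8 and 28.9 CPM to 149 and 132 CPM (log2 fold change 2.21). Hjurp, the chaperone that loads the centromeric histone Cenpa, is outside the list and was named because its change differed from that in tumors. It stood at 15.9 and 14.3 CPM in WT against 115 and 111 CPM in K74R. The 4 mitosis genes that did not pass were Cenpe, Cenpf, Kif11 and Mki67. Their K74R libraries differed most between themselves: Mki67, the antigen recognised by the Ki-67 antibody, stood at 97.7, 32.9, 212 and 513 CPM (adjusted p = 0.0918). Without WT library 2 there were 26 calls in this list, without WT library 1 there were 34 and without K74R library 2 there were 20. Without K74R library 1 there were 0, while all 34 still had an unadjusted p under 0.05 and the median was 2.43.

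**Figure D3:**
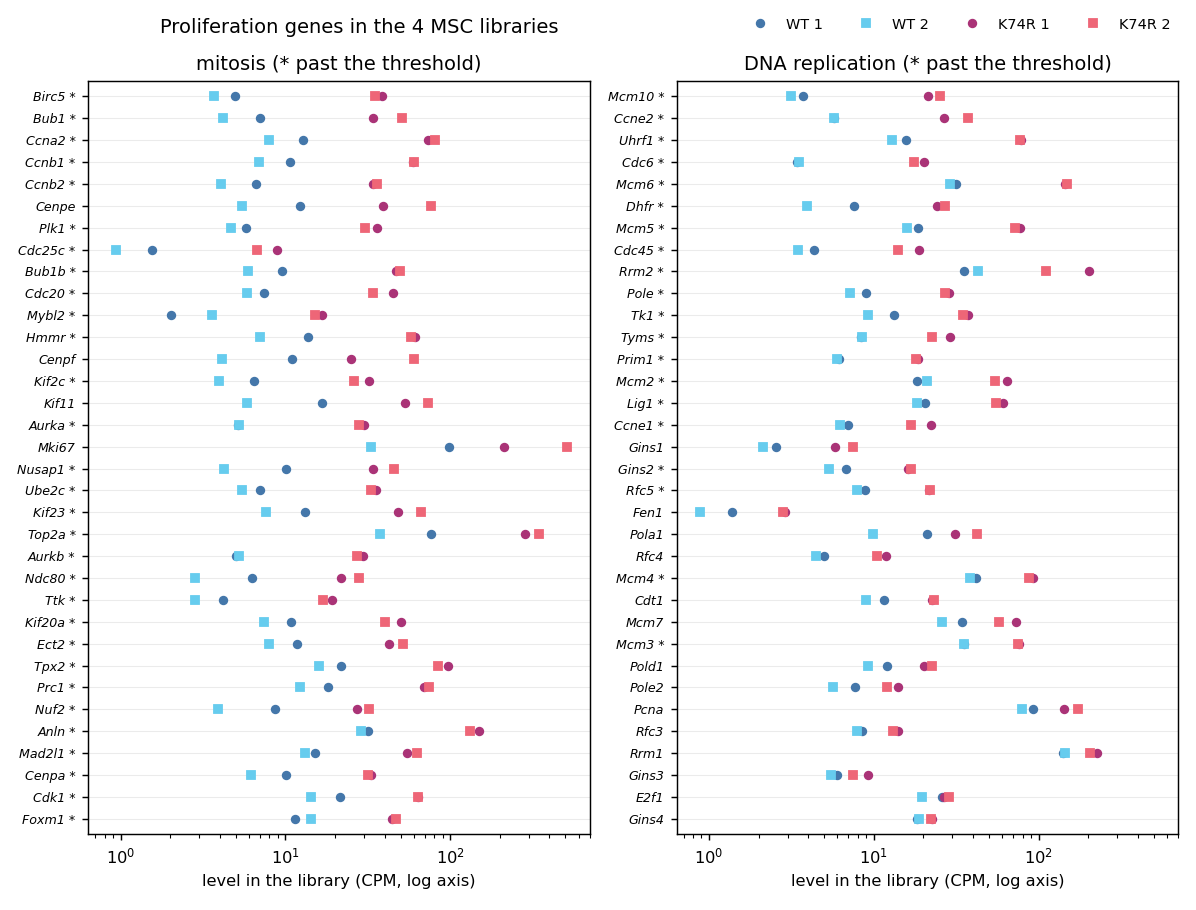
Level of each of 34 mitosis genes (left) and 34 DNA replication genes (right) in the 4 MSC libraries, in CPM on a log axis, ordered by fold change. An asterisk marks the 30 and 20 genes past the threshold; every K74R point lies to the right of both WT points of its gene.

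DNA replication genes were higher as well, by less. Of 34 tested, 20 rose and 0 fell, the median log2 fold change was 1.47, and 31 had an unadjusted p under 0.05. All 6 subunits of the MCM helicase, which unwinds DNA at the fork, lay higher in both K74R libraries, and 5 of them rose. Mcm6 changed most among those, from 31.7 and 29.2 CPM to 145 and 148 CPM (log2 fold change 2.26, SE 0.17, adjusted p = 0.0196), and Mcm7, with 34.2, 25.9, 72.9 and 57.4 CPM, missed the threshold (adjusted p = 0.0603). The origin-licensing factor Cdc6 rose from 3.40 and 3.51 CPM to 20.2 and 17.5 CPM, and Ccne2, an S-phase cyclin, from 5.71 and 5.76 CPM to 26.5 and 37.2 CPM. Uhrf1, which maintains DNA methylation behind the fork, rose from 15.6 and 12.9 CPM to 78.2 and 77.0 CPM. The replication clamp Pcna (92.6, 79.0, 142 and 174 CPM) and the transcription factor E2f1 (25.8, 19.5, 26.7 and 28.8 CPM) had log2 fold changes of 0.88 and 0.29 and did not pass. Without K74R library 1 there were 0 calls and 27 of 34 members had an unadjusted p under 0.05. Without WT library 2 there were 6 calls, and without WT library 1 or K74R library 2 there were 12 and 13.

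The promoters of these genes were read from RefSeq's table of gene starts on GRCm38.p6, 250 bases upstream of the start, because most members of both lists were called higher in K74R. A CCAAT box is the core element bound by the factor NF-Y in many mitotic promoters, and the sequences TTTGGCGC and TTTCGCGC are classical E2F-type sites of genes induced at the start of S phase. Both motifs were chosen after the values were seen, and both strands were searched. Examples follow, 5′ to 3′ on the gene's strand, with the matches in capitals. Aurka (chr2:172370571-172370820, minus strand) and Plk1 (chr7:122159185-122159434, plus strand) are shown for CCAAT. Mcm6 (chr1:128359706-128359955, minus strand) and Uhrf1 (chr17:56304063-56304312, plus strand) are shown for the E2F-type sequences, Uhrf1 at 1 of its annotated starts.
Aurka: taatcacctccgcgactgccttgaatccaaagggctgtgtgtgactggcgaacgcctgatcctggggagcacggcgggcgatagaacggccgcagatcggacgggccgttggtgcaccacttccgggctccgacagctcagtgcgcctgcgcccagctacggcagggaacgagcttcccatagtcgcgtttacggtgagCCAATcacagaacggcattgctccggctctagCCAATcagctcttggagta
Plk1: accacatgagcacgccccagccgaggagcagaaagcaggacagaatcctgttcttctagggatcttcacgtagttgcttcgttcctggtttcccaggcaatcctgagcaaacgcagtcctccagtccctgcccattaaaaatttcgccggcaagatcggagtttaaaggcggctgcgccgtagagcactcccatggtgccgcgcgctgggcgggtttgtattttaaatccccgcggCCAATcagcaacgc
Mcm6: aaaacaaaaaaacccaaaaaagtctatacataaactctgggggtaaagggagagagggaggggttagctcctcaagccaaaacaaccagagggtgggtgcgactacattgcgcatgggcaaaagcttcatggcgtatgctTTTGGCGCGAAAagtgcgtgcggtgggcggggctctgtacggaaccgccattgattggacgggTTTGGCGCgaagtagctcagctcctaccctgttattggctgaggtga
Uhrf1: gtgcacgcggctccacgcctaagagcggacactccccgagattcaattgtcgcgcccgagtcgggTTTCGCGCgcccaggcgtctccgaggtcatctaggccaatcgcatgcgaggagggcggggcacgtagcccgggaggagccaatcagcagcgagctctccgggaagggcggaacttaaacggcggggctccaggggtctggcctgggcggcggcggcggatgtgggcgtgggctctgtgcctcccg

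CCAAT was found in 22 of 30 promoters of mitosis genes (73.3%) and in 17 of 32 promoters of replication genes (53.1%), against 33.8% of all 32851 promoters in the table. The E2F-type sequences were found in 5 of 32 promoters of replication genes (15.6%) and in 1 of 30 of mitosis genes (3.33%), against 0.654% of all promoters. In Mcm6 the first capital run holds 2 overlapping matches on opposite strands. The table held a promoter for 28 of the 34 mitosis genes and 27 of the 34 replication genes, some with more than 1 start. A match describes the sequence and not a bound site.

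Endothelial genes were lower in K74R MSC by the widest margins of any list. Of 9 tested, 5 fell and 0 rose, and the median log2 fold change was -6.35. Pecam1, the endothelial adhesion molecule CD31, stood at 97.7 and 522 CPM in WT against 3.39 and 2.76 CPM in K74R (log2 fold change -6.65, SE 0.92, adjusted p = 0.0323). Cdh5, the cadherin of endothelial junctions, stood at 84.0, 475, 2.68 and 3.30 CPM, and Emcn, a sialomucin of capillaries, at 60.7, 338, 2.08 and 1.92 CPM. In each case WT library 2 lay several times above WT library 1, and WT library 1 lay well above both K74R libraries.

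The angiopoietin receptor Tek (5.36, 19.5, 0.164 and 0.0601 CPM) and its relative Tie1 (9.81, 52.1, 0.382 and 0.360 CPM) fell in the same way. So did Erg, an endothelial transcription factor, and Plvap, a protein of capillary fenestrae, which are outside the list: Erg stood at 12.8, 47.6, 0.164 and 0.420 CPM and Plvap at 30.9, 172, 2.02 and 1.38 CPM. Fgd5, an exchange factor for Cdc42 in endothelium, fell from 4.85 and 33.1 CPM to 0.0546 and 0.120 CPM. The ratio of WT over K74R with the libraries pooled was 214 (95% counting interval 72.9 to 1041, which leaves out the spread between libraries). Myct1 and She, both known from endothelium, fell as well (log2 fold change -6.85 for Myct1). Kdr, the receptor for vascular endothelial growth factor, had 18.9, 57.8, 5.63 and 13.9 CPM and did not pass (adjusted p = 0.137). Without WT library 2 the list had 5 calls and a median of -4.70, and without WT library 1 it had 9. Without either K74R library it had 0 calls, with 7 of 9 members at an unadjusted p under 0.05 when K74R library 1 was left out.

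Cd34, an antigen of endothelium and of some stromal and blood progenitors, fell beside these genes, from 11.5 and 58.1 CPM to 1.09 and 1.38 CPM (adjusted p = 0.0496). It was the only fall among 27 mesenchymal stromal genes tested, of which 2 rose (median 0.35). Those were S100a4, a calcium-binding protein of motile fibroblasts (1.85, 1.00, 13.9 and 6.85 CPM), and Pdpn, the mucin podoplanin (36.6, 34.1, 97.9 and 71.3 CPM). Without WT library 1 the stromal list had 4 falls. Thy1, Mcam and Eng, which stroma shares with other cells, were highest in WT library 2 (Thy1 at 8.65, 47.5, 1.64 and 2.40 CPM) and did not pass. Vim, the intermediate filament of mesenchyme, stood at 1879, 2626, 6700 and 4443 CPM (adjusted p = 0.0958).

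Most macrophage genes were lower in K74R MSC, but few passed. Of 25 tested, 1 fell and 1 rose. At an unadjusted p under 0.05, 15 had lower and 1 had higher levels. The median log2 fold change was -0.91, and lay between -1.3 and -0.66 when a library was left out. C1qa, a subunit of complement C1q, fell from 687 and 540 CPM to 222 and 266 CPM (log2 fold change -1.33, SE 0.23, adjusted p = 0.0482). C1qb (887, 719, 268 and 372 CPM) and C1qc (791, 660, 276 and 377 CPM) had log2 fold changes of -1.33 and -1.15 and adjusted p = 0.0561 and 0.0643. Mrc1, the mannose receptor, stood at 2162, 1671, 411 and 1128 CPM and Lyz2, macrophage lysozyme, at 10700, 9309, 4531 and 6281 CPM, lower in both K74R libraries without passing. Lyz1, a close copy of Lyz2 with which it could share reads, rose from 14.0 and 23.2 CPM to 57.3 and 84.3 CPM (log2 fold change 1.93, adjusted p = 0.0458). C1qa passed in none of the settings that left out a library, and Lyz1 lost its call without WT library 1 or either K74R library.

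Some genes known from myeloid cells rose against this direction. Apart from Arg1, Lyz1 and Mmp8 they are in no list, and they were grouped after their values were seen. Marco, a scavenger receptor of macrophages that binds bacteria, rose from 2.83 and 1.25 CPM to 55.8 and 89.1 CPM (log2 fold change 5.14, SE 0.47, adjusted p = 0.0196). Cd5l, a protein that macrophages secrete and that inhibits apoptosis, rose from 0.173 and 0.250 CPM to 30.9 and 19.3 CPM (log2 fold change 6.85, SE 0.45, adjusted p = 0.0155). Both lay in every K74R library more than 10 times above every WT library. Arg1, the arginase of alternatively activated macrophages, stood at 13.7, 21.7, 114 and 340 CPM and rose by 3.68 on the log2 scale. Plac8 (0.923, 1.502, 52.3 and 26.6 CPM), Cd200r4, a receptor of the CD200R family (0, 2, 59 and 71 counts, a ratio of 62.0 with a 95% counting interval from 16.8 to 517), and Ear2, an eosinophil-associated ribonuclease with close copies (0, 0, 7.49 and 5.53 CPM), rose too. Mmp8, the neutrophil collagenase, rose from 3.75 and 2.25 CPM to 45.6 and 71.1 CPM, whereas Csf3r, the receptor for granulocyte colony-stimulating factor, fell from 26.3 and 19.6 CPM to 5.79 and 8.17 CPM. These were the calls among 3 neutrophil genes tested, and the granule genes Mpo, Elane, S100a8 and S100a9 lay at or below 0.437 CPM in all 4 libraries.

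MHC class II genes, which present extracellular antigen, were lower in K74R. Of 7 tested, 3 fell and 0 rose (median -2.497), and the class II summed level was 171 and 135 CPM in WT against 35.5 and 42.4 CPM in K74R. Cd74, the invariant chain, stood at 90.6 and 61.5 CPM in WT against 5.90 and 6.43 CPM in K74R (log2 fold change -3.62, SE 0.27, adjusted p = 0.0196). H2-Aa (15.8, 9.33, 0.710 and 0.541 CPM) and H2-Eb1 (12.8, 12.5, 2.08 and 2.40 CPM) fell too (log2 fold change -4.31 for H2-Aa). Ciita, the activator of class II genes, had 2.31, 2.69, 0 and 0.240 CPM (adjusted p = 0.0607). The macrophage sum was lower in K74R as well, and its part in the class II values was not tested. Without WT library 1, WT library 2 and K74R library 2 the class II calls were 3, 3 and 4, and without K74R library 1 they were 0, with 5 of 7 at an unadjusted p under 0.05, against 6 with all libraries. Of 16 class I genes 0 passed (median -0.24), with 3 lower at an unadjusted p under 0.05.

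Cxcr4, the receptor for Cxcl12, fell from 194 and 138 CPM to 6.99 and 3.72 CPM (log2 fold change -4.95, SE 0.39, adjusted p = 0.0196). Its ligand Cxcl12, the chief retention factor of the marrow niche, stood at 4776, 8231, 1444 and 2850 CPM and did not pass (log2 fold change -1.60, adjusted p = 0.108). Among 14 niche factors tested 1 fell and 0 rose (median -0.42). That was Tnfrsf11b, osteoprotegerin, the decoy receptor that restrains osteoclasts, which stood at 308 and 346 CPM in WT against 80.2 and 111 CPM in K74R (log2 fold change -1.78, adjusted p = 0.0312). Kitl, the ligand of the Kit receptor, had 688, 616, 241 and 602 CPM, so that K74R library 2 lay close to WT library 2 and only K74R library 1 was clearly lower. Among osteoclast genes 1 of 6 fell, Ctsk, a collagen-cleaving protease of osteoclasts and fibroblasts, with 217, 202, 72.8 and 88.0 CPM (median of the list -0.27, but 0.14 without WT library 1).

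**Figure D4:**
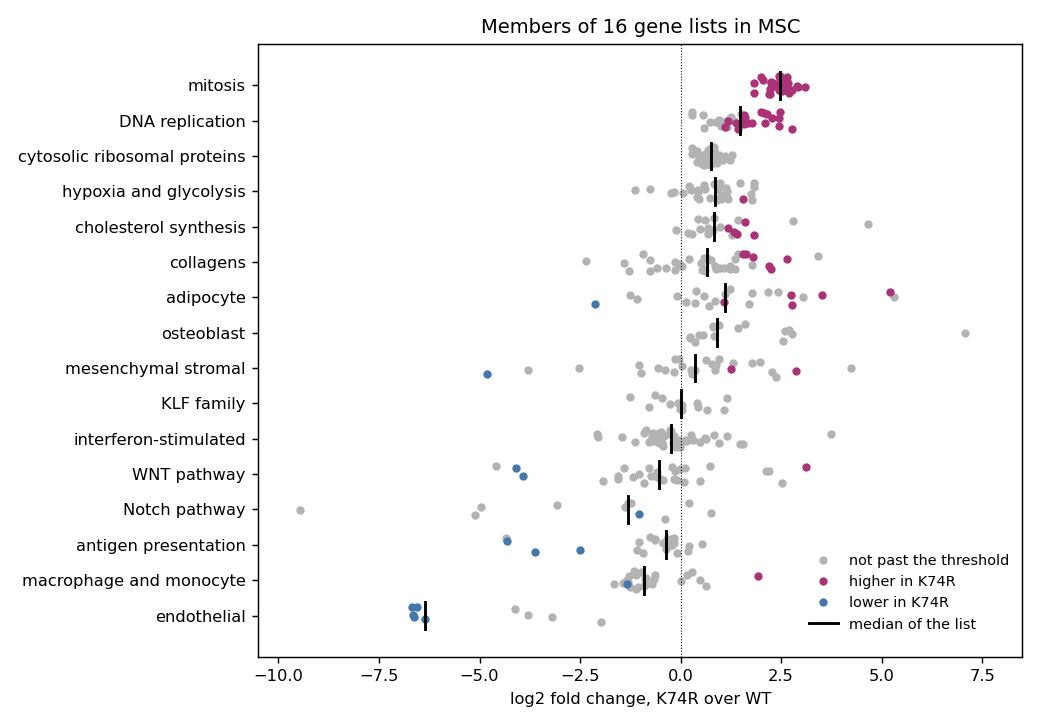
Log2 fold change of K74R over WT for each tested member of 16 gene lists in MSC, 1 point per gene, with the list's median as a bar. Mitosis members all lie above 1.8, ribosomal protein members lie together above 0 with 0 past the threshold, and endothelial members lie below 0.

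Some genes of fat storage rose. Of 23 adipocyte genes tested, 5 rose and 1 fell (median 1.10), and 14 were higher at an unadjusted p under 0.05. Fabp4, a fatty acid carrier of adipocytes and macrophages, rose from 48.7 and 28.9 CPM to 461 and 424 CPM (log2 fold change 3.51, SE 0.31, adjusted p = 0.0196). The lipid droplet coat proteins Plin1 (3.81, 0.814, 83.1 and 89.1 CPM), Plin2 (218, 217, 479 and 445 CPM) and Plin4 (59.6, 48.9, 490 and 249 CPM) rose by 5.20, 1.09 and 2.77 on the log2 scale. Scd1, which desaturates fatty acids, rose from 27.9 and 23.9 CPM to 227 and 121 CPM. Gpd1, which makes glycerol phosphate for triglyceride and is outside the list, rose from 2.54 and 0.188 CPM to 51.1 and 48.6 CPM. The K74R libraries of these 6 genes lay above both WT libraries throughout.

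The adipocyte regulator Pparg stood at 35.6, 44.8, 169 and 94.4 CPM (log2 fold change 1.71, adjusted p = 0.0529), and 0 of 7 adipocyte transcription factors passed. Adipoq, the adipocyte hormone adiponectin, had 8.19, 14.7, 30.0 and 47.9 CPM (adjusted p = 0.0613), and leptin (Lep) had 0 counts in all 4 libraries. The summed level of the list was lower in K74R, at 6942, 6501, 5416 and 4737 CPM, with Apoe the largest part of it in WT. The fall was Apoe, a lipid carrier protein also abundant in macrophages, from 5237 and 4692 CPM to 1348 and 911 CPM (log2 fold change -2.14, SE 0.32, adjusted p = 0.0361). Without K74R library 1 the list had 0 calls and 15 of 23 members at an unadjusted p under 0.05 in either direction, against 17 with all libraries. Leaving out WT library 1, WT library 2 or K74R library 2 gave 5, 3 and 6 rises.

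Cholesterol synthesis genes rose in part. Of 21 tested, 5 rose and 0 fell (median 0.83, and 0.60 to 1.15 when a library was left out), with 17 higher at an unadjusted p under 0.05. Among them were Hmgcs1, an early enzyme of the pathway (56.5, 43.4, 129 and 121 CPM), Idi1, Sqle and Cyp51, with log2 fold changes between 1.32 and 1.83. These calls depended on single libraries: there were 0 without WT library 2 or K74R library 1, 2 without WT library 1 and 5 without K74R library 2.

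Several collagens were higher in K74R MSC. Of 37 genes for collagen chains and their processing enzymes, 6 rose and 0 fell (median 0.67), and 20 were higher and 6 lower at an unadjusted p under 0.05. The chains of collagen VI, a beaded filament around cells, rose together. Col6a1 stood at 713, 531, 1936 and 1724 CPM, Col6a2 at 437, 290, 1267 and 1262 CPM and Col6a3 at 315, 274, 2221 and 1437 CPM, with log2 fold changes of 1.56, 1.80 and 2.64 and adjusted p = 0.0441, 0.0375 and 0.0250. Col15a1, a basement membrane zone collagen, rose from 105 and 120 CPM to 348 and 346 CPM. Col5a3, a minor fibrillar chain, and Loxl4, a crosslinking oxidase, rose by 2.20 and 2.25 on the log2 scale. All 6 lay higher in both K74R libraries.

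The main fibrillar chains of bone and skin did not pass: Col1a1 stood at 1995, 976, 3106 and 4838 CPM (adjusted p = 0.123) and Col1a2 at 3388, 2082, 5435 and 6113 CPM (adjusted p = 0.127). The basement membrane chains Col4a1 and Col4a2, which endothelium also makes, were highest in WT library 2, at 409, 1203, 870 and 594 CPM and at 247, 721, 450 and 297 CPM. Without WT library 2 the list kept 1 rise as a count, and without K74R library 1 it had 0, with 20 of 37 at an unadjusted p under 0.05 in either direction, against 26 with all libraries. Among 24 matrix glycoproteins, 2 rose and 0 fell (median 0.31). Fbln1, fibulin 1, stood at 4.15, 5.07, 21.6 and 16.8 CPM and Fbn2, fibrillin 2, at 3.52, 1.82, 13.1 and 31.1 CPM. Of 21 metalloproteinases and inhibitors, Mmp8 rose and Mmp3, stromelysin, fell from 1.38 and 1.13 CPM to 0.0546 and 0.0601 CPM (median -0.18, but 0.13 without WT library 2). The K74R levels of Mmp3 lie below the 0.0858 CPM that 0 counts over the genotype would allow, so the size of its fall is uncertain. Mmp3 lost its call whichever library was left out. Mmp13, the collagenase of bone and cartilage, had 1090, 2096, 48.5 and 198 CPM and did not pass (adjusted p = 0.0577).

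The bone, cartilage and muscle lists gave no call by edgeR with all 4 libraries. All 16 osteoblast genes tested had positive log2 fold changes (median 0.90) and 8 had an unadjusted p under 0.05. Spp1, osteopontin, a matrix protein also made by macrophages, stood at 1168, 868, 9314 and 3905 CPM (adjusted p = 0.0516), and Sp7, the osteoblast factor osterix, at 81.8, 78.3, 165 and 148 CPM (adjusted p = 0.0505). Both lay just outside the threshold with all K74R libraries above WT. Bglap, osteocalcin, a marker of mature osteoblasts, had at most 3.17 CPM. Among 9 chondrocyte and tendon genes 0 passed (median 0.61; 3 higher and 2 lower at an unadjusted p under 0.05), and Col2a1, the collagen of cartilage, had 916, 331, 2357 and 2072 CPM (adjusted p = 0.0995). Among 12 smooth muscle and myofibroblast genes 0 passed (median -0.096; 2 higher and 2 lower at an unadjusted p under 0.05), with the median at 0.19 without WT library 2, and Acta2, smooth muscle actin, had 1654, 2756, 1849 and 2090 CPM.

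Signalling lists changed at single genes. In the WNT pathway 1 of 29 rose and 2 fell (median -0.54). Wnt10b, a ligand that favours bone over fat, rose from 1.10 and 0.939 CPM to 11.1 and 6.61 CPM (log2 fold change 3.11, SE 0.41, adjusted p = 0.0312). Dkk2, a secreted modulator of WNT receptors, fell from 10.2 and 7.89 CPM to 0.382 and 0.661 CPM, and Wnt16 from 1.96 and 2.63 CPM to 0.0546 and 0.240 CPM. In the Notch pathway 1 of 11 fell, the receptor Notch1 (102, 87.3, 44.6 and 48.3 CPM, edgeR's adjusted p = 0.0479), and the median was -1.32. The Notch1 call was lost with limma-voom and with a replicate block. Dll4, an endothelial Notch ligand, had 1.62 and 8.70 CPM in WT against 0 counts in both K74R libraries (edgeR's adjusted p = 0.0616). With the libraries pooled and 3 counts over the group as the floor it was at least 58.4-fold lower, a bound that leaves out the spread between the WT libraries. In the TGF-beta pathway 1 of 21 rose: Smad6, an inhibitor of BMP signals, from 31.6 and 30.7 CPM to 91.4 and 79.4 CPM. The median was -0.30 but 0.028 without WT library 2 and 0.0095 without K74R library 2, where 3 rose. Without WT library 1 the falls in the WNT and Notch lists were 5 and 3.

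No gene passed in the BMP (21 tested, median -0.39, 3 higher and 7 lower at an unadjusted p under 0.05), Hedgehog (6, -0.16, 2 and 1), IGF and growth factor (28, -0.49, 1 and 7) and YAP target (13, -0.21, 1 and 2) lists by edgeR. The Hedgehog and YAP medians turned to 0.046 and 0.13 without WT library 2, and without WT library 1 there were 5 falls in the IGF and growth factor list. Nog, the BMP antagonist noggin, had 19.1, 18.9, 5.96 and 8.83 CPM (adjusted p = 0.0561). Among 12 chemokines 1 fell and 0 rose (median 0.21): Cxcl16, a transmembrane chemokine, stood at 92.2, 82.3, 30.1 and 36.2 CPM. The chemokine median was -0.28 without K74R library 2 and 0.99 without WT library 1, where 3 rose. Ccl2, which attracts monocytes, had 25.2, 15.7, 60.0 and 129 CPM (adjusted p = 0.0561). Among 27 immunoregulatory products of stroma Arg1 rose and Entpd1, the ectonucleotidase CD39, fell from 195 and 201 CPM to 45.9 and 35.6 CPM (log2 fold change -2.28, SE 0.21, adjusted p = 0.0196; median of the list 0.076). That median was -0.056 without WT library 2 and -0.20 without K74R library 2, where 3 rose and 3 fell. Cd274, which encodes PD-L1, had 6.46, 4.88, 4.92 and 5.29 CPM, overlapping between genotypes, and Pdcd1 had 0 counts in all 4 libraries.

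Among interferon-stimulated genes 0 of 44 passed by edgeR (median -0.24; 4 higher and 3 lower at an unadjusted p under 0.05), and the median was 0.031 without K74R library 1. Of 23 genes of the NF-kB and inflammatory list only Mmp3 fell (median -0.48), at the low levels given above. Of 20 immediate early genes Fosl1, an AP-1 subunit, rose (4.04, 4.88, 32.3 and 16.6 CPM), while Egr2 (15.7, 14.4, 1.53 and 3.604 CPM) and Nr4a1 (22.1, 14.7, 4.04 and 4.93 CPM) fell (median -0.75). Fos itself was high in WT library 1 alone, at 132 CPM against 7.82, 10.5 and 17.7 CPM. Of 18 complement and coagulation genes Masp1, a protease of the lectin pathway, rose from 25.4 and 27.6 CPM to 331 and 128 CPM (median -0.44). The complement median was 0.051 without WT library 2, and falls numbered 3 without WT library 1 and 5 without K74R library 2. The immediate early list had 5 falls without WT library 2.

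The lists of growth and metabolism held few calls. All 42 cytosolic ribosomal protein genes had positive log2 fold changes (median 0.75), 33 with an unadjusted p under 0.05 and 0 past the threshold by edgeR. They summed to 14800 and 14300 CPM in WT against 28460 and 21500 CPM in K74R, and the number at an unadjusted p under 0.05 was 15 without WT library 1, 8 without WT library 2 and 10 without K74R library 1. All 39 nuclear genes of the respiratory chain were positive too (median 0.43, 12 at an unadjusted p under 0.05, 0 passed). Those 12 became 6 and 3 without WT libraries 1 and 2, and 5 and 21 without K74R libraries 1 and 2. The 13 genes of the mitochondrial genome had a median of 0.10 with 0 at an unadjusted p under 0.05, and the median was -0.15 without WT library 2. Of 32 hypoxia and glycolysis genes 1 rose (median 0.87, 16 at an unadjusted p under 0.05, but 8 without WT library 1 and 7 without K74R library 1). It was Ddit4, an inhibitor of the growth kinase mTORC1, with 12.7, 15.2, 47.8 and 33.8 CPM. Ldha, lactate dehydrogenase, had 414, 847, 2496 and 1752 CPM (adjusted p = 0.0771), lowest in WT library 1.

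Among stress lists, Pdia6, a disulfide isomerase of the endoplasmic reticulum, rose among 17 genes of the unfolded protein response (207, 234, 701 and 485 CPM; median of the list 0.76). Aldh1l2 and Psat1, enzymes of mitochondrial folate and serine synthesis, rose among 20 genes of the integrated stress response (median 0.20), Aldh1l2 from 27.5 and 27.5 CPM to 77.7 and 80.3 CPM and Psat1 from 48.7 and 57.2 CPM to 162 and 115 CPM. Osgin1 fell among 15 NRF2 targets (21.5, 19.97, 7.70 and 5.77 CPM; median 0.24). Of 29 genes of the p53 and senescence list Lmnb1, lamin B1, whose loss marks senescent cells, rose from 13.3 and 11.3 CPM to 58.4 and 61.8 CPM (log2 fold change 2.29, SE 0.20, adjusted p = 0.0196), and 0 of 12 cell cycle inhibitors passed (median -0.15). The median of the integrated stress response was -0.026 without WT library 1 and that of the NRF2 targets -0.010 without K74R library 1. Bhlhe41 fell among 18 clock genes (median -0.38), and Fkbp5 rose among 12 genes of the glucocorticoid response (median -0.18).

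Positional and imprinted genes changed singly. Of 29 Hox genes Hoxb9 fell (3.81, 14.0, 0.219 and 0.120 CPM) and the other 28 did not pass (median 0.49). Of 15 limb and positional factors 2 rose, among them the homeobox factor Meis2 (10.4, 8.83, 35.9 and 24.2 CPM), and the median was 0.60. There were 0 calls in this list without either WT library or without K74R library 1. Of 16 imprinted genes Peg10, a retrotransposon-derived gene expressed from the paternal copy, rose from 18.6 and 11.1 CPM to 169 and 67.0 CPM. Meg3 (21.98, 19.2, 5.68 and 5.23 CPM) and Rian (30.4, 25.7, 9.73 and 11.8 CPM), noncoding RNAs of the maternal copy of a shared locus, fell (median of the list 0.16, but -0.092 without WT library 1 and -0.0097 without K74R library 2). Among KLF genes 0 of 14 passed (median 0.0078, with either sign when a library was left out; 4 higher and 3 lower at an unadjusted p under 0.05). Among the 4 erythroid and megakaryocyte genes tested Tal1 fell from 8.08 and 10.5 CPM to 2.51 and 3.06 CPM (edgeR's adjusted p = 0.0497). The Tal1 call was lost with upper quartile scaling and with limma-voom. The median of this list was 0.33, but -0.17 without K74R library 2. Of the genes tested, 0 of 3 lymphocyte, 0 of 2 epithelial and 0 of 4 sex-linked genes passed. Large differences that did not pass were those of the keratins Krt19 (0.519, 1.44, 73.7 and 11.5 CPM, adjusted p = 0.0557) and Krt18 (0.923, 6.38, 0.492 and 0.120 CPM, adjusted p = 0.127), which differed in direction. Cd4, a co-receptor of T cells, had 0.808, 1.69, 16.9 and 6.25 CPM (adjusted p = 0.0561).

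A further set of genes was present in 1 genotype and almost absent in the other. With at most 3 counts over the 2 libraries of a genotype and at least 20 counts in each library of the other, 19 genes were found in K74R and 14 in WT. Their ratios and bounds pool the 2 libraries of a genotype and take in counting error only, not the spread between libraries. Gm42047, a long noncoding RNA (chr8:121833247-121841178, plus strand), had 0 and 0 counts in WT against 1084 and 747 counts in K74R, at least 582-fold higher. In bone marrow it had 7768 counts in WT and 7694 in K74R, and in tumors 5853 and 5649, summed over 3 libraries each, so it was near 0 in the WT MSC libraries and in no other group. Ear2 had 0 and 0 counts in WT against 137 and 92 counts in K74R, at least 72.8-fold higher. Rab3b, a GTPase of vesicle release, had 3, 0, 133 and 69 counts, a ratio of 64.2 with a counting interval from 21.7 to 314 (exact, 95%).

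In the other direction Lhx6, a LIM homeobox factor, had 52 and 248 counts in WT against 0 and 0 in K74R. With the libraries pooled it was at least 105-fold lower, although the WT libraries lay far apart and it did not pass (edgeR's adjusted p = 0.0552). Kmo, a hydroxylase of tryptophan breakdown, had 106, 156, 2 and 0 counts, a ratio of WT over K74R of 137 (95% counting interval 37.7 to 1141). Gm49450, annotated as protein coding (chr15:98932137-98953551, minus strand), had 241, 317, 0 and 1 counts. In bone marrow its counts went the opposite way, 5 in WT and 528 in K74R. Gm8615, a pseudogene (chr5:149155108-149156209, minus strand), had 320, 189, 0 and 2 counts. Its counts were lower in K74R in the other tissues too, 74 in WT and 3 in K74R bone marrow and 39 and 2 in tumors, summed over the libraries of each group. Pseudogenes and genes with close copies are uncertain, since the sources used here do not give the strand setting or how multi-mapping reads were counted.

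The higher level of proliferation genes was found in MSC and differed from the other tissues by test. In tumors the genotype is that of the host, and the MC38 tumor cells need not carry it. How much of the tumor RNA came from host cells was not tested, so tumor values are no measure of K74R in dividing tumor cells. The K74R effect in MSC minus that in bone marrow passed at 3427 of 18191 genes (18.8%; 10.8% with the MSC effect more positive and 8.05% more negative), and minus that in tumors at 1929 (10.6%; 6.46% and 4.14%). These tests take the spread of each gene from all 16 libraries and may understate that of MSC. In the same model the MSC comparison gave 4430 genes, against 484 when MSC was fitted alone. All 34 mitosis genes had a more positive effect in MSC than in bone marrow and than in tumors, and so did 31 and 30 of 34 DNA replication genes. The median log2 fold change of the mitosis genes was 2.47 in MSC, -0.037 in bone marrow and 0.021 in tumors, and single genes lay between -0.21 and 0.13 in bone marrow and between -0.18 and 0.20 in tumors. The mitosis genes were also at far higher sums in the other tissues than in MSC: from 12330 to 14610 CPM in bone marrow and from 6226 to 6889 CPM in tumors. Endothelial genes had a more negative effect in MSC at 8 of 10 genes against either tissue.

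**Figure D5:**
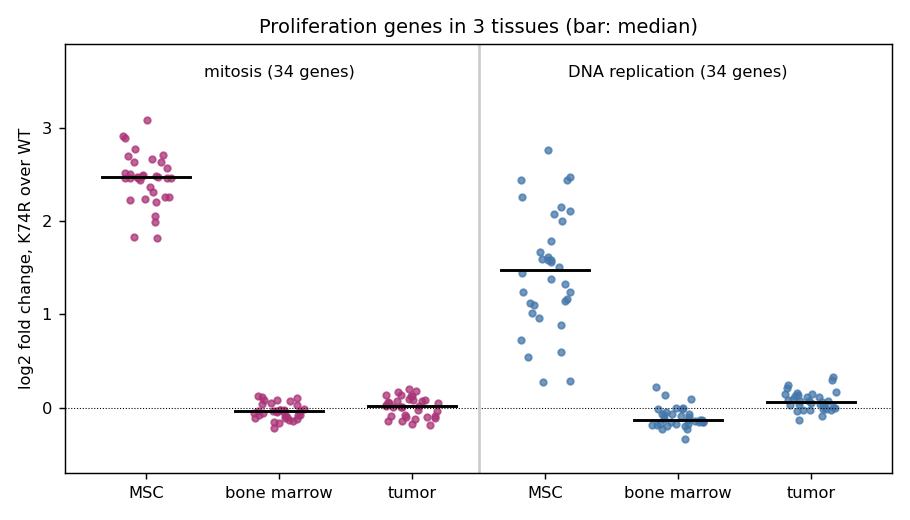
Log2 fold change of K74R over WT for 34 mitosis genes (red) and 34 DNA replication genes (blue) in MSC, bone marrow and tumors, 1 point per gene with the median as a bar. The MSC medians are 2.47 and 1.47, and those of the other tissues lie between -0.14 and 0.064.

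Few genes passed the threshold both in MSC and in another tissue. In bone marrow alone 115 of 14872 genes passed (0.773%) and in tumors alone 6 of 14779 (0.0406%). MSC shared 11 called genes with bone marrow, which is 2.27% of the MSC calls and 9.57% of the bone marrow calls, and 0 with tumors. Of the 11, 6 moved the same way. Rpl3-ps1, a processed pseudogene of a ribosomal protein gene, stood at 64.9, 72.0, 7.76 and 7.45 CPM in MSC. In bone marrow it stood at 53.1, 54.0 and 57.5 CPM in WT against 5.602, 6.71 and 6.08 CPM in K74R, nearly the same difference. AI506816, a processed transcript, stood at 1.90, 0.814, 349 and 251 CPM in MSC and went from 7.34, 9.41 and 7.80 CPM to 202, 103 and 102 CPM in bone marrow. In tumors it was at 222 to 276 CPM in WT against 229 to 248 CPM in K74R, overlapping between genotypes. Ddit4, Dhrs9, Amd2 and Gm7324 made up the rest of the 6.

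Bmf, Ctsk, Spc24, Dsp and Gm49450 went in opposite directions. Dsp, the desmosomal protein desmoplakin, had 3.35, 7.51, 0.219 and 0.541 CPM in MSC, against 2.51, 2.26 and 1.99 CPM in WT against 12.9, 14.6 and 14.0 CPM in K74R bone marrow. Spc24, a kinetochore subunit, had 0.577, 1.19, 7.98 and 7.99 CPM in MSC and was 39.3, 44.4 and 41.4 CPM in WT against 31.0, 28.6 and 30.1 CPM in K74R bone marrow. Bmf, a BH3-only activator of apoptosis, fell in MSC from 10.3 and 11.5 CPM to 2.24 and 2.28 CPM and rose in bone marrow from 18.6 to 25.9 CPM in WT to 32.2 to 50.3 CPM in K74R. Over the autosomes and X, the share of tested genes that changed ran from 2.34% on chromosome 7 to 4.75% on chromosome 1, and 0 of 6 tested genes on Y changed.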

How the data were processed

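The authors deposited raw read counts per gene. HISAT2 2.1.0, featureCounts 1.6.0, Trimmomatic 0.38 and the build GRCm38 are named in the submitters' processing notes, with no roles or settings. The sources used here do not give the strand setting, the annotation release or how multi-mapping reads were counted. All 55536 gene identifiers matched GENCODE M21. Per the labels' protocols, RNA came from TRIzol extraction and an mRNA library kit.

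The 4 MSC libraries were fitted alone with R 4.3.3 and edgeR 4.0.16: filterByExpr, trimmed mean of M-values scaling, quasi-likelihood test with genotype as the only term, Benjamini-Hochberg adjustment over all 14475 genes kept, threshold 0.05, prior count 0.125. Scripts were tested on simulated data. Differences between tissues were contrasts in 1 model of all 16 libraries. Alternatives used DESeq2 1.42.0, limma 3.58.1, other scalings and filters, length and GC offsets, a replicate block, and each library left out.

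Lists are described by counts and medians, without set tests. The lists and naming rules were chosen with earlier results of these data known. The rule named, among properly named calls whose mean log2 CPM was 1 or more, without overlap, the 10 largest changes each way, and the 5 largest each way with a mean of at least 100 CPM; further, up to 2 risen and 2 fallen members per list role by p (or, with none past the threshold, up to 2 with the smallest p), genes near 0 in 1 genotype, the 5 smallest p of each tissue difference, cell markers, and calls shared with another tissue; other members are examples chosen after their values were seen. A few list members are not reported here.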

Additional observations from a re-analysis of the deposited data

Results flagged for a closer look

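The K74R effect differed between MSC and bone marrow at 3427 genes and between MSC and tumor at 1929 genes by a test of the difference itself (edgeR, quasi-likelihood, Benjamini-Hochberg over 18191 genes). The spread in this model came from all 16 libraries, so these counts cannot be set beside the 484 genes of the fit of MSC alone. Among the 5 named genes with the smallest p against bone marrow, the difference of the log2 fold changes was -5.37 for Cxcr4, 9.52 for Vill, 2.47 for Mcm6, 2.56 for Nek2 and 3.12 for Birc5. Against tumor it was 2.29 for Mcm6, 2.47 for Ercc6l, 2.56 for Nek2, 2.98 for Hjurp and 3.05 for Birc5. Ercc6l, a helicase of anaphase bridges, and Nek2, a centrosome kinase, are cell division genes outside the mitosis list, as is Hjurp. Vill, a villin-like protein, differed through its change in bone marrow (log2 fold change -7.82) rather than in MSC, where it stood at 0.692, 0.313, 1.86 and 1.38 CPM.

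Of the genes called in both MSC and bone marrow, 7 had effects that differed by test. MSC minus bone marrow was 2.98 for Dhrs9 and 3.74 for AI506816, where both effects were positive. It was -3.26 for Bmf, -2.86 for Ctsk, 3.68 for Spc24, -6.42 for Dsp and -15.5 for Gm49450, where the effects had opposite signs. The value of Gm49450 depends on the prior count, since a K74R MSC library had 0 counts.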

How the results depend on the processing

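The count of changed MSC genes was 484 and ranged from 0 to 581 when a library was left out. It was 3063 with no filter on low counts, 1906 with DESeq2, 4430 with all 16 libraries in a single model, and 436, 499, 346, 448, 432 and 649 with relative log expression, upper quartile, library size alone, a stricter filter, robust dispersion, and length and GC offsets. Rises were 61.4% of calls and 49.6% with no filter, 45.3% without WT library 1 and 51.7% with DESeq2. The labels do not say whether replicate numbers pair the libraries. The correlation of their deviations was -0.221, which cannot decide it with a single difference per genotype. With the replicate block 1135 genes passed (49.8% rises), with the block and length and GC offsets 884, and with the numbers crossed, added after the data were seen, 1943. The blocked differences from bone marrow and tumor had 2637 and 1357 genes. Leaving out a library gave 1938 to 4416 genes against bone marrow and 1110 to 3030 against tumor, the lowest of both without K74R library 1; the other alternatives gave up to 4046 and 2665.

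Of 90 called genes, 0 passed in all 18 alternatives, since none passed without K74R library 1; the cause was not tested. With all 4 libraries, 64 of the 90 passed with library size alone and 77 with robust dispersion. Calls were also lost when another library was left out. Wnt16, Csf3r, Osgin1, Rian, Ctsk, Notch1 and Tal1 were among those that lost their call whichever library was left out. Of the 48 list medians, 17 changed sign when 1 library was left out, and none of these exceeded 0.97 in size with all libraries. Among single genes 7 results changed sign, at 24 values in all, and none was past the threshold in its main fit. Eng did pass with no filter on low counts, with its sign kept. Ranges are over the settings that left out a library. Eng became 0.031 without WT library 2 (range -1.57 to 0.031) and Cd274 0.061 without WT library 1 (-0.34 to 0.061). Hoxd8 became 0.0059 (limma-voom), 0.027 (block with offsets) and 0.58 (without WT library 2; -0.60 to 0.58). Hoxd9 became 0.0996, 0.050, 0.069 and 0.032 (limma-voom, block, block with offsets, crossed block) and 0.98 and 0.14 (without WT library 2 or K74R library 1; -0.75 to 0.98). Acp5 became 0.048, 0.048 and 0.044 (limma-voom, block, crossed block) and 0.73 and 0.071 (without WT library 1 or K74R library 2; -0.60 to 0.73). For MSC minus bone marrow, Rpl3-ps1 became -0.015, -0.060, -0.015 and -0.0081 (relative log expression, library size, DESeq2, no filter) and -0.075 and -0.016 (without WT library 1 or K74R library 1; -0.075 to 0.093), and Ddit4 became 0.099 and 0.18 (without WT library 2 or K74R library 2; -0.31 to 0.18).

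At this depth a level under 0.0901 CPM in WT or 0.0858 CPM in K74R MSC was not detectable, and no thinning of the counts was run.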

Other observations

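Some of the most evenly separated genes belong to no list. Npl, an enzyme of sialic acid breakdown, stood at 128 and 100.02 CPM in WT MSC and at 4.04 and 3.904 CPM in K74R MSC (log2 fold change -4.84, edgeR's adjusted p = 0.00993). Rbpj-ps3, a pseudogene with a parent copy that could share its reads, had the smallest p of the comparison, with 120 and 105 CPM against 1.15 and 0.961 CPM (adjusted p = 0.00423). Among 443 pseudogenes tested 0 rose and 8 fell, and 3.56% of 12876 protein-coding genes changed. These were chosen after their values were seen.

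Within 5 Mb of Klf1 (chr8:84901928-84905291 on GRCm38, plus strand), 4 of 90 tested genes rose and 3 fell (7.78%), against 2.38% of 673 on the rest of chromosome 8; the span was chosen after the values were seen. The falls were Tbc1d9, Cacna1a and Lyl1, a blood transcription factor 197 kb away that stood at 27.3, 33.99, 1.91 and 3.36 CPM. The rises were Asf1b, a histone chaperone of replication, Orc6, an origin-binding subunit, Syce2, 13.7 kb away, and Gm42031, a noncoding RNA 220.6 kb away with 0 and 0 counts in WT against 20 and 20 in K74R. In bone marrow the log2 fold changes were -0.0059 for Tbc1d9, -0.89 for Cacna1a and -0.032 for Lyl1. For Asf1b, Orc6 and Syce2 they were 0.0020, -0.019 and -0.38, and Gm42031 was not tested there. A link to the Klf1 locus was not tested.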
